A study of Mus musculus with 50 samples.

Results

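Clca1 and Clca3b are mouse genes of the calcium-activated chloride channel regulator (CLCA) family, and their transcripts were followed across every group of an array study of IL-13 and ovalbumin in the airways. They were found as all spots that the platform annotation gives 1 of these 2 gene symbols. The larger platform held 3 such spots among 19152, namely Clca1 spots 8429 and 10757 and Clca3b spot 3071. The smaller platform held 2 among 18240, namely Clca1 spot 8030 and Clca3b spot 2938. The spots were kept apart, because family members may share signal on a spot, and no probe sequence was used here.

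CLCA proteins are secreted or membrane-attached metalloprotease-like proteins that are not channels themselves. Clca1 is a secreted product of mucous (goblet) cells and a widely used marker of airway mucous cells exposed to the type 2 cytokine IL-13. Its human counterpart is known to raise the activity of the calcium-activated chloride channel Ano1 at the cell surface. IL-13 acts on cells through its receptor and the transcription factor Stat6. Clca3b is a less studied mouse member of the same family.

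The study had 50 arrays in 10 groups of 5, of which 25 arrays held RNA of tracheal perfusate and 25 held RNA of whole lung. In both tissues the groups were IL-13 in Stat6+/- animals, IL-13 in Stat6-/- animals, IL-13 in Stat6-/- animals that also carry the mark Epi+, ovalbumin (OVA), and saline (PBS). The 3 IL-13 groups differ in Stat6 state and share IL-13. No group without IL-13 is labelled with these genotypes. Comparisons among the 3 groups thus do not separate what genotype does by itself from an altered reaction to IL-13. The labels give neither the construct and promoter behind Epi+ nor the way IL-13 was given, and they leave out the genotype of the OVA and PBS animals, ages and strains. Perfusate RNA was amplified once and lung RNA was not. The labels do not state that arrays of a group hold separate animals, and p-values then measure only the spread between these arrays.

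Each value is a log2 ratio of a sample to a common reference, centred on the median of its array, so 0 means that the spot had the array's typical ratio and 1 unit is a doubling. The direction of the ratio, taken as sample over reference, is likely and not stated, and its basis is that Il13 stood higher in IL-13 Stat6-/- than in PBS perfusate by 2.72 ± 0.21 (SE). If the ratio ran the other way, every sign would turn, the highest differences would be the lowest, and the shares called higher would be those called lower. The Il13 spot averaged 2.76 ± 0.55 (SD, n = 5) in Stat6-/-, 2.09 ± 0.35 with Epi+ and 1.77 ± 0.44 in Stat6+/- perfusate. In lung it averaged 5.18, 5.54 and 5.34 in the same groups. The part of this unequal Il13 ratio in the values of Clca1 and Clca3b was not tested. Between 15693 and 18655 spots had a value on an array. The Stat6 spot differed by -0.10 ± 0.14 between Stat6+/- and Stat6-/- perfusate and by -0.19 ± 0.28 in lung. Neither passed limma's test, and since the position of this probe in the disrupted gene is unknown here, this spot does not check the genotype labels. On 5 Stat6-/- arrays (perfusate replicates 10, 11 and 12, lung replicates 1 and 2) spot 9262 of the Y-linked gene Eif2s3y stood low, between -3.45 and -1.93, and these are called the arrays low in Y-linked transcripts. In the other perfusate groups spot 9262 stood at 0.01 or higher on every array. The other spot of Eif2s3y was not low on the perfusate arrays among them (0.52, 0.17 and 0.03). Y-linked Uty stood at -2.10, -0.95 and -0.93 on these perfusate arrays. The lowest Uty value of the other perfusate groups was -0.98, on Stat6+/- replicate 4. On lung replicates 1 and 2 Uty stood at -3.66 and -4.35. The sex-linked gene Xist stood at -0.09, 0.91 and -0.33 on perfusate replicates 10, 11 and 12, against -1.36 and -2.58 on Stat6-/- replicates 13 and 14. On the arrays of the other perfusate groups Xist stood between -5.70 and -1.50. On Stat6-/- lung replicate 1 Xist stood at 7.35, and replicate 2 had no value. Whether the sex of the animals differed between groups was not tested. On the smaller platform OVA lung replicates 2 and 5 also stood low, at -2.04 and -2.25 on Eif2s3y spot 8825. Uty stood at -1.53 and -1.16 on these arrays. At the other Eif2s3y spot replicate 2 stood at 1.69 and replicate 5 at -3.25. Xist stood at 2.94 on replicate 5 and had no value on replicate 2. Ratios carry no absolute level, so they cannot show whether a cell type's markers were present. A lower ratio in a whole tissue or a perfusate can come from fewer cells of a type or from less RNA per cell, which cannot be told apart.

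On chromosome 3 the RefSeq annotation lists 8 genes of the family in 1 cluster, of which Clca3a1, Clca3b and Clca1 have spots on the arrays.

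The letters of a Stat6 site, TTC and GAA parted by 4 bases of any kind, which read the same on both strands, had no match from 250 bases before to 50 after the start in the RefSeq promoters (build GRCm38.p6) of Clca3b, Clca3a1, Clca4b and Clca2. It matched in 2284 of 32851 mouse promoters of the same length (6.95%). The spacing of other STAT proteins, TTC and GAA parted by 3 bases, had 1 match, in Clca2, against 8.3% of promoters. The promoters of Clca1, Clca4a, Clca3a2 and the pseudogene Clca4c-ps were not analysed here, and these matches describe only this window.

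In tracheal perfusate Clca1 was high in 3 groups and low in 2. In Stat6+/- IL-13 perfusate spot 8429 stood at 3.07, 1.42, 1.86, 0.26 and 1.33 on replicates 4 to 8. With Epi+ it stood at 1.98, 2.08, 2.05, 1.19 and 1.02 on replicates 16 to 20. In OVA perfusate it stood at 2.58, 2.33, 2.03, 2.33 and 1.73 on replicates 28 to 32. Every one of these 15 arrays had a ratio above 0. In Stat6-/- IL-13 perfusate the same spot stood at -1.97, -1.84, -2.07, -2.11 and -2.23 on replicates 10 to 14. In PBS perfusate it stood at -0.45, -1.20, -1.89, -1.70 and -0.38 on replicates 22 to 26. All 10 arrays were below 0, and the Stat6-/- arrays lay close together (SD 0.14, n = 5) where the PBS arrays were spread out (SD 0.70, n = 5).

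The other Clca1 spot gave the same picture. Spot 10757 averaged 1.97 ± 0.81 (SD, n = 5) in Stat6+/-, 1.85 ± 0.51 with Epi+, 2.44 ± 0.32 in OVA, -1.93 ± 0.19 in Stat6-/- and -1.03 ± 0.72 in PBS perfusate. The spots carry the same RefSeq accession, and on the 25 perfusate arrays their values differed by a median of 0.188 and at most by 0.938. The largest gap was on Stat6+/- replicate 7, where spot 8429 read 0.26 and spot 10757 read 1.19, and this array was the lowest of its group at both spots, by different amounts.

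**Figure D1:**
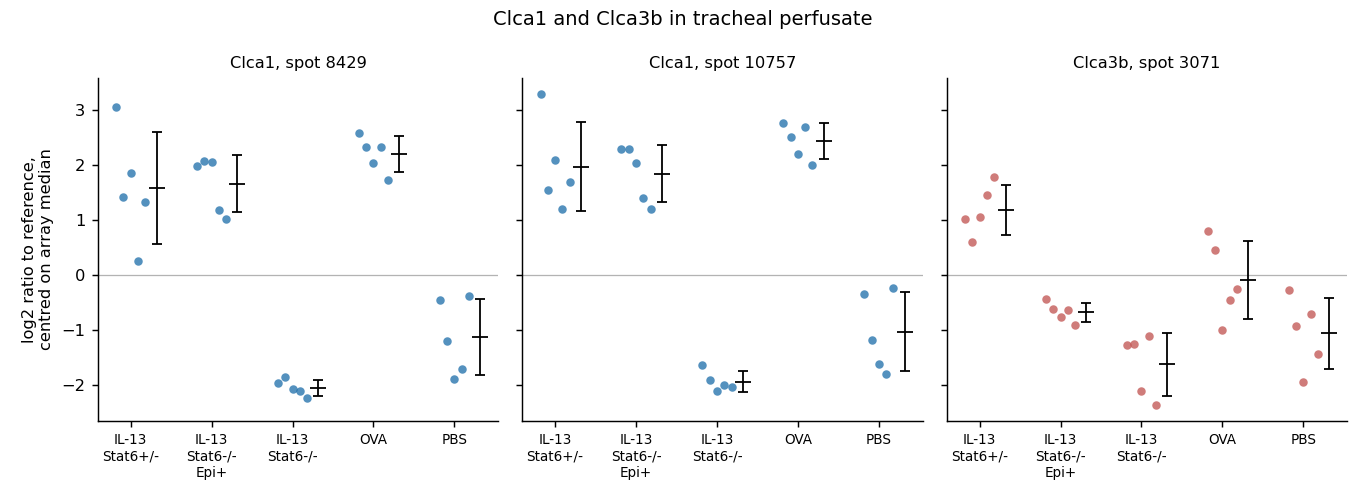
Centred log2 ratio to the reference (y axis) of the Clca1 spots 8429 and 10757 and the Clca3b spot 3071 in the 5 tracheal perfusate groups (x axis). Points are arrays, and the bar beside them is the mean with its SD (n = 5). Both Clca1 spots are above 0 on every Stat6+/-, Epi+ and OVA array and below 0 on every Stat6-/- and PBS array, while Clca3b is above 0 on every Stat6+/- array and below 0 on every Epi+ array.

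Clca3b ordered the groups differently. In Stat6+/- IL-13 perfusate spot 3071 stood at 1.03, 0.61, 1.05, 1.46 and 1.78 on replicates 4 to 8, above 0 on all 5. With Epi+ it stood at -0.44, -0.62, -0.76, -0.63 and -0.90 on replicates 16 to 20, below 0 on all 5 and with the smallest spread of the groups (SD 0.17). In Stat6-/- IL-13 perfusate it stood at -1.26, -1.25, -2.10, -1.11 and -2.36 on replicates 10 to 14. These arrays lay below every Epi+ array, with a gap of 0.21. In OVA perfusate Clca3b stood at 0.80, 0.46, -0.99, -0.45 and -0.25 on replicates 28 to 32. In PBS perfusate it stood at -0.28, -0.92, -1.94, -0.70 and -1.43 on replicates 22 to 26. The OVA arrays overlapped the PBS arrays, with 3 of 5 above the highest PBS value, and the 5 Epi+ arrays all lay inside the range of PBS.

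Comparing Stat6+/- with Stat6-/- perfusate asks what depends on Stat6 when IL-13 is present. Both genes were higher in Stat6+/-, and all 3 spots passed limma's moderated test at an adjusted p under 0.05, against 3.12% of the 17670 spots tested (1.13% called higher). Clca1 spots 10757 and 8429 had the highest and the second highest difference of all spots, at 3.90 ± 0.29 (SE, 14.9-fold, adjusted p = 3.28e-07) and 3.63 ± 0.34 (12.4-fold, adjusted p = 6.21e-06). Clca3b ranked 10 of 17670, at 2.80 ± 0.27 (6.97-fold, adjusted p = 1.07e-05). Each array shared its reference preparation with 1 array of every other group, and within each of the 5 preparations all 3 spots were higher in Stat6+/-, Clca3b by 1.71 to 4.14. Without the 3 Stat6-/- arrays low in Y-linked transcripts the differences were 3.93, 3.71 and 2.80, and all 3 were called by limma (adjusted p = 0.000265, 0.00107 and 0.00349).

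Epi+ against Stat6-/- perfusate asks what the addition of Epi+ to Stat6-/- animals restores. Clca1 rose and Clca3b was not called, so 2 of 3 spots passed, against 0.481% of spots tested (0.147% called higher). Spot 10757 had the highest difference of all spots, 3.78 ± 0.29 (13.7-fold, adjusted p = 1.14e-06, limma), and spot 8429 the second highest, 3.71 ± 0.34 (13.1-fold, adjusted p = 1.1e-05). Clca3b differed by 0.94 ± 0.27 (95% interval 0.37 to 1.52, adjusted p = 0.2, limma), higher in all 5 preparations by 0.48 to 1.46. This comparison shares its Stat6-/- arrays with the one before. Without the 3 arrays low in Y-linked transcripts Clca1 was called at 3.81 and 3.79 (adjusted p = 0.00131 and 0.00147), and Clca3b was not at 0.94 (adjusted p = 0.593, limma).

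Stat6+/- against Epi+ perfusate sets these groups against each other directly. Clca3b was higher in Stat6+/- by 1.86 ± 0.27 (3.62-fold, 95% interval 1.28 to 2.43, adjusted p = 0.0284, limma), 1 of 6 spots called of 17670 (0.034%, or 0.0226% called higher). All 5 Stat6+/- arrays lay above all 5 Epi+ arrays with a gap of 1.04, and the difference ran from 1.23 to 2.68 over the 5 preparations. Clca1 did not pass. Its spots differed by -0.08 ± 0.34 (95% interval -0.78 to 0.63) and 0.12 ± 0.29 (-0.48 to 0.72), higher in Stat6+/- in 2 and 3 of 5 preparations, and these small values change sign under several settings. The Clca3b call is fragile: it was lost without Stat6+/- replicate 6 or 8, without Epi+ replicate 16, 17, 19 or 20 (adjusted p between 0.0584 and 0.119), after quantile normalization (0.119), without the reference block (0.0792), without the Stat6-/- arrays low in Y-linked transcripts (0.062) and when these 2 groups were fitted alone (0.404). The difference itself stayed between 1.61 and 2.04 when single arrays were left out.

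OVA against PBS perfusate asks what allergen exposure changes. Clca1 rose, and Clca3b was not called, against 0.243% of spots called (0.17% higher). Clca1 spot 10757 differed by 3.46 ± 0.29 (11.0-fold, adjusted p = 4.94e-06, limma) and spot 8429 by 3.32 ± 0.34 (10.0-fold, adjusted p = 6.4e-05), ranking 2 and 3 of 17670. Clca3b differed by 0.97 ± 0.27 (95% interval 0.39 to 1.54, adjusted p = 0.194, limma), higher in all 5 preparations by 0.47 to 1.18. In a fit of only these groups the Clca1 differences were the same and not called (adjusted p = 0.0902, limma).

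The IL-13 groups were also set against PBS perfusate, which all 3 comparisons and the OVA comparison share. The genotype of the PBS animals is not in the labels. In these 3 comparisons IL-13 and a possible difference of genotype cannot be told apart. In Stat6+/- all 3 spots rose, against 7.07% of spots called (2.8% higher), Clca1 by 2.71 ± 0.34 and 3.00 ± 0.29 and Clca3b by 2.24 ± 0.27 (adjusted p = 7.16e-05, limma). With Epi+ both Clca1 spots rose, by 2.79 ± 0.34 and 2.88 ± 0.29, against 2.75% of spots called (1.22% higher), and Clca3b differed by 0.38 ± 0.27 (adjusted p = 0.437, limma). In Stat6-/- none of the 3 spots passed, against 0.589% of spots called. Clca1 differed by -0.92 ± 0.34 and -0.90 ± 0.29 and Clca3b by -0.56 ± 0.27 (adjusted p = 0.16, 0.129 and 0.266, limma). All 3 spots were lower than PBS in each of the 5 preparations, where 4, 4 and 2 of the 5 Stat6-/- arrays lay below the lowest PBS array. In fits of only the 2 groups compared, the Stat6+/- calls were lost (adjusted p = 0.0556 for both Clca1 spots and 0.0601 for Clca3b), and so were the Epi+ calls (0.0968 and 0.0881).

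OVA against Stat6+/- IL-13 perfusate compares allergen with IL-13, but the labels leave out the genotype of the OVA animals. Treatment and a possible difference of genotype cannot be told apart here. Clca3b was lower in OVA at -1.27 ± 0.27 (2.41-fold, adjusted p = 0.0138, limma), against 3.6% of spots called (1.65% lower), and was lower in all 5 preparations. Clca1 differed by 0.61 ± 0.34 (95% interval -0.09 to 1.32) and 0.47 ± 0.29 (-0.13 to 1.07), neither called. The Clca3b call was lost on values as deposited (adjusted p = 0.0838), without the reference block (0.0672) and when these groups were fitted alone (0.188).

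In whole lung the Clca1 ratios spanned a wider range. In Stat6+/- IL-13 lung spot 8429 stood at 6.13, 6.60, 8.73, 6.99 and 5.98 on replicates 1, 3, 4, 5 and 6. With Epi+ it stood at 4.26, 6.46, 7.32, 4.84 and 5.34 on replicates 1, 2, 3, 4 and 6. In Stat6-/- lung it stood at -0.02, -0.73, -0.28, -1.15 and -0.56 on replicates 1, 2, 4, 5 and 6. The Stat6+/- and Epi+ arrays overlapped each other and lay far above every Stat6-/- array, with gaps of 6.00 and 4.28. Spot 10757 averaged 6.78 ± 1.13 (SD, n = 5), 6.02 ± 1.39 and -0.95 ± 0.53 in the same groups. On the 15 lung arrays the Clca1 spots differed by a median of 0.368 and at most by 1.29.

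Clca3b was scattered in lung. In Stat6+/- IL-13 lung spot 3071 stood at 1.31, 0.82, -0.68, 5.03 and 2.27 on replicates 1, 3, 4, 5 and 6. With Epi+ it stood at 1.66, 1.48, -0.57, 0.75 and -0.50 on replicates 1, 2, 3, 4 and 6. In Stat6-/- lung it stood at -1.06, -1.01, 0.21, -1.39 and -0.48 on replicates 1, 2, 4, 5 and 6. The 3 groups overlapped, and the Stat6+/- array with the highest Clca1 ratio, replicate 4, had the lowest Clca3b ratio of that group. This array had a value on 15719 spots, the fewest of any array of the larger platform.

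**Figure D2:**
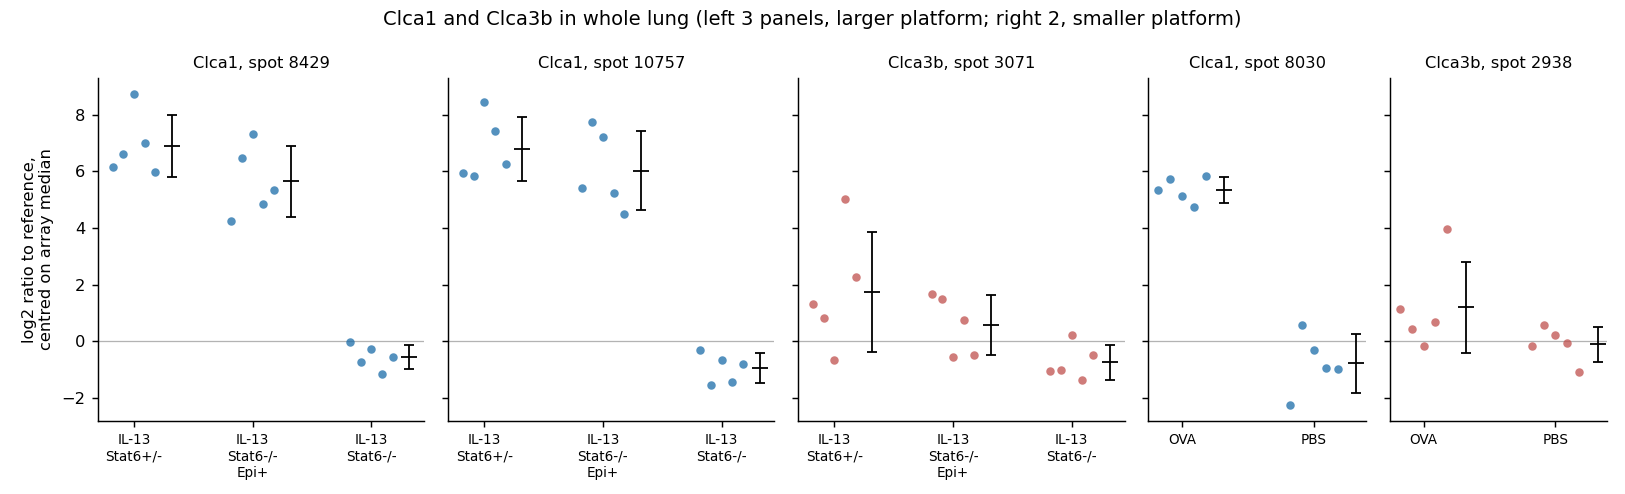
Centred log2 ratio to the reference (y axis) of Clca1 and Clca3b spots in whole lung (x axis, groups), with the 3 IL-13 groups on the larger platform and OVA and PBS on the smaller one. Points are arrays and bars the mean with its SD (n = 5). Clca1 is at 4.26 or higher on every Stat6+/-, Epi+ and OVA array and at 0.59 or lower on every Stat6-/- and PBS array, while the Clca3b groups overlap.

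Between Stat6+/- and Stat6-/- lung both Clca1 spots rose and Clca3b was not called, against 5.07% of 16749 spots called (3.42% higher). Clca1 differed by 7.73 ± 0.66 (213-fold) at spot 10757 and 7.44 ± 0.61 (173-fold) at spot 8429, the highest and the second highest of all spots (adjusted p = 2.53e-05 and 1.95e-05, limma). Within the 2 reference pools the differences were 7.15 to 8.46. Folds of this size depend on the Stat6-/- signal, whose distance from background is not given in the values. Clca3b differed by 2.50 ± 0.86 (95% interval 0.64 to 4.35, adjusted p = 0.121, limma), by 1.20 within reference pool 3 and 3.36 within pool 4. It was called without Stat6+/- replicate 4 (3.24, adjusted p = 0.0271) and with array weights (3.00, adjusted p = 0.0243), and without Stat6+/- replicate 5 it was 1.60 (adjusted p = 0.154). Without the 2 Stat6-/- arrays low in Y-linked transcripts the values were 7.71, 7.55 and 2.28, with the Clca1 spots alone called (adjusted p = 0.000512, 0.000485 and 0.365, limma).

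Epi+ against Stat6-/- lung called 14 spots in all (0.0836% of 16749), all higher, and both Clca1 spots were among them. They differed by 6.90 ± 0.66 (120-fold) at spot 10757 and 6.21 ± 0.62 (74.0-fold) at spot 8429, again the highest and the second highest (both adjusted p = 0.000573, limma). Clca3b differed by 1.26 ± 0.87 and was not called (95% interval -0.62 to 3.13, adjusted p = 0.983, limma). Without the 2 arrays low in Y-linked transcripts Clca1 was called at 6.82 and 6.31 (both adjusted p = 0.0161, limma), and Clca3b stood at 1.02 and was not called. With the replicate number as a block the call of spot 10757 was lost. This comparison shares its Stat6-/- arrays with the one before.

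Between Stat6+/- and Epi+ lung none of the 3 spots passed, against 3.53% of spots called. Clca1 differed by 1.23 ± 0.62 at spot 8429 (95% interval -0.11 to 2.56) and 0.83 ± 0.66 at spot 10757 (-0.60 to 2.26). Clca3b differed by 1.24 ± 0.87 (95% interval -0.64 to 3.12), and by -0.50 within pool 3 and 2.92 within pool 4.

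On the smaller platform Clca1 spot 8030 stood at 5.34, 5.71, 5.11, 4.73 and 5.84 on OVA lung replicates 1, 2, 4, 5 and 6. In PBS lung it stood at -2.25, 0.59, -0.31, -0.95 and -0.97 on replicates 1 to 5. The groups were apart by 4.14, and the difference of 6.13 ± 0.47 (69.8-fold, adjusted p = 0.000502, limma) was the highest of 17228 spots, of which 1.83% were called (1.51% higher). Clca3b spot 2938 stood at 1.14, 0.44, -0.18, 0.67 and 3.96 on the OVA replicates, against -0.18, 0.56, 0.23, -0.07 and -1.09 in PBS. It was not called, at 1.31 ± 0.69 (95% interval -0.20 to 2.83, adjusted p = 0.386, limma), and at 0.63 without OVA replicate 6. That replicate had a value on 15693 spots, the fewest of any array. Without OVA replicates 2 and 5, low in Y-linked transcripts, Clca1 was called at 6.21 (adjusted p = 0.00552, limma) and Clca3b was not at 1.75 (adjusted p = 0.332). All 10 arrays used reference pool 2, so no value within another pool exists. With the replicate number as a block the call of Clca1 was lost.

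**Figure D3:**
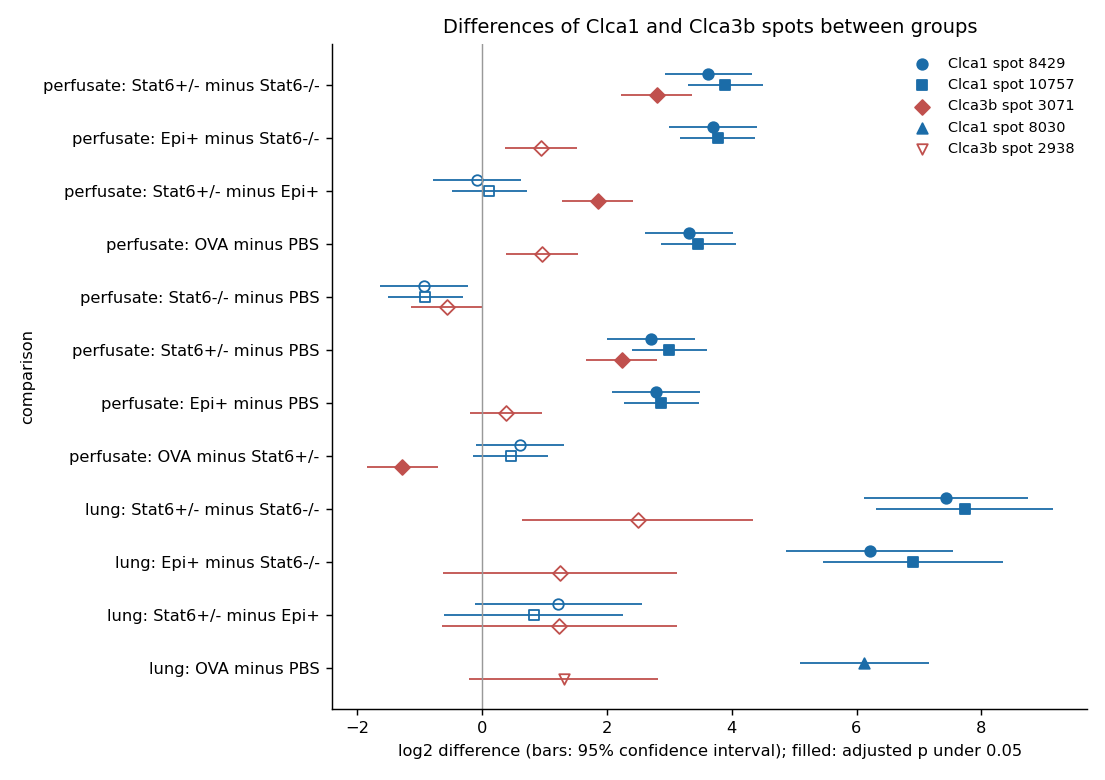
Differences between groups on the log2 scale (x axis) for each Clca1 and Clca3b spot, by comparison (y axis). Bars are 95% confidence intervals, and filled symbols had an adjusted p under 0.05 in limma's test over all spots. Clca1 is filled in 8 of 12 comparisons at every spot measured, and Clca3b is filled in 4, all in perfusate.

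The Stat6+/- minus Stat6-/- difference of Clca1 was smaller in perfusate than in lung. The difference between tissues was -3.81 ± 0.68 at spot 8429 and -3.83 ± 0.69 at spot 10757 (adjusted p = 0.000536 and 0.000575, limma), against 4.43% of 15988 spots called (3.15% lower). For Clca3b it was 0.30 ± 0.86 (95% interval -1.45 to 2.06, adjusted p = 0.901). Perfusate and lung RNA differed in amplification and in reference, so tissue and preparation cannot be told apart. After quantile normalization, which gives all arrays 1 distribution, the Clca1 values were -1.45 and -1.40 and were not called (adjusted p = 0.136 and 0.214, limma). For Epi+ minus Stat6-/- no spot was called, against 0.1% of spots, with Clca1 at -2.50 ± 0.68 and -3.12 ± 0.69 and Clca3b at -0.31 ± 0.86 (adjusted p = 0.293, 0.079 and 0.986, limma). Spot 10757 was called here without lung Epi+ replicate 1, 4 or 6 (adjusted p = 0.0498, 0.0362 and 0.0225).

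Subtracting Clca3b from the mean of the Clca1 spots on each array shows how the genes parted. This difference of ratios compares no transcript amounts, since each ratio is set by its own reference signal. In perfusate it was 2.43 ± 0.43 (SD, n = 5) with Epi+ and 2.40 ± 0.58 in OVA, and 0.59 ± 1.13 in Stat6+/-. In Stat6-/- and PBS perfusate it was -0.37 ± 0.48 and -0.02 ± 0.79. In lung it was 5.08 ± 2.63 in Stat6+/-, 5.27 ± 1.74 with Epi+ and -0.00 ± 0.58 in Stat6-/-, and on the smaller platform 4.14 ± 1.39 in OVA and -0.67 ± 0.88 in PBS. The Stat6+/- perfusate arrays thus ran from -0.73 to 2.15, while those of Epi+ ran from 1.92 to 2.81. These differences were not tested.

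**Figure D4:**
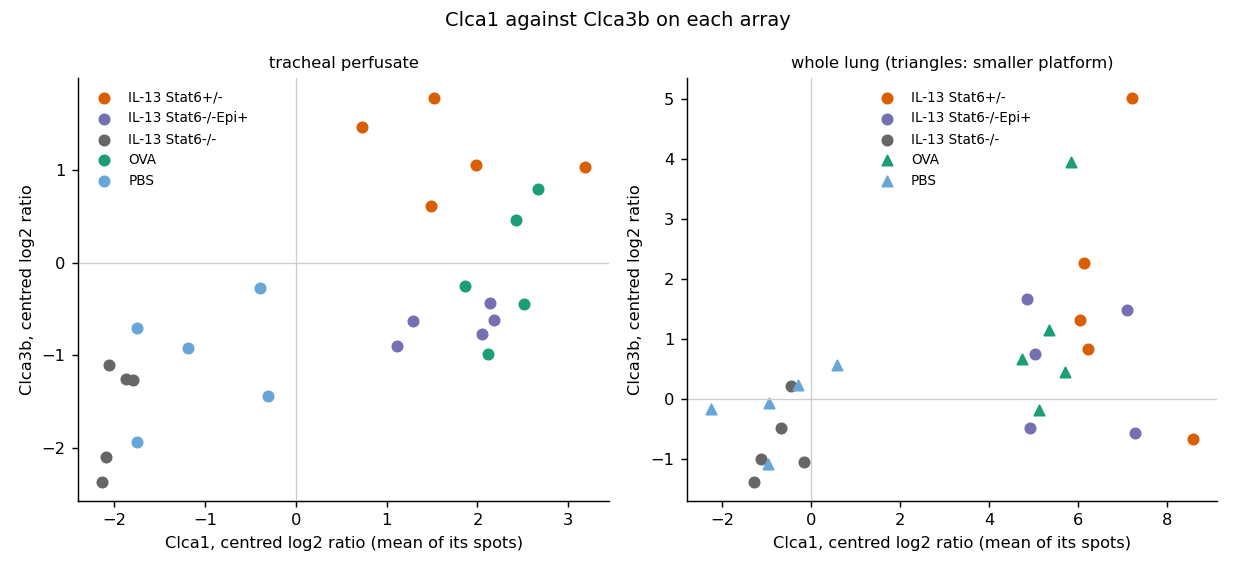
Clca1 (x axis, mean of its spots) against Clca3b (y axis) on each array, both as centred log2 ratios, for perfusate (left) and whole lung (right, with the smaller platform as triangles). Each symbol is 1 array, coloured by group. In perfusate the Stat6+/-, Epi+ and OVA arrays share the right side, with every Stat6+/- array above 0 and every Epi+ array below 0 in Clca3b.

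The other spotted family member, Clca3a1, was not called in any of the 14 comparisons. In perfusate its group means ran from 0.29 ± 0.63 (SD, n = 5) in Stat6-/- to 0.89 ± 1.42 in OVA. In lung it averaged -1.60 ± 1.99 in Stat6+/-, 0.20 ± 1.22 in Stat6-/- and 1.94 ± 1.41 with Epi+, where it had a value on 3 of 5 arrays. Stat6+/- differed from Epi+ lung by -3.16 ± 1.00 (adjusted p = 0.113, limma), with all 5 arrays below the Epi+ arrays, and from Stat6-/- lung by -1.79 ± 0.85 (adjusted p = 0.28).

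Of 26 measured genes of chloride and bicarbonate channels and carriers, 1 rose in Stat6+/- against Stat6-/- perfusate and none fell, 1 of 29 spots against 3.12% of all spots called (1.13% higher). It was Slc26a4 (pendrin), an exchanger of chloride for bicarbonate, which rose by 1.99 ± 0.28 (adjusted p = 0.000336, limma). The median of the list's spots was -0.13, against -0.02 over all spots. Slc26a4 was also the only gene of the list called with Epi+ against Stat6-/- (2.01 ± 0.28) and in OVA against PBS perfusate (1.66 ± 0.28). In lung it rose by 6.82 ± 0.83 in Stat6+/- and 5.41 ± 0.85 with Epi+ against Stat6-/-, and by 3.50 ± 0.28 in OVA, beside Slc4a2 in the first and Slc26a2 in the last of these comparisons. Ano1, the calcium-activated chloride channel that human CLCA1 acts on, differed by -0.18 ± 0.29 between Stat6+/- and Stat6-/- perfusate and by -0.04 ± 0.20 in lung, and Cftr, the cyclic AMP-regulated chloride channel, by 0.06 ± 0.35 and 0.34 ± 0.21, none called. Against PBS perfusate 1 of the 29 spots was higher in Stat6+/- (Slc26a4) and 3 were lower (Ano1, Ano10 and Slc12a2), where 7.07% of all spots were called, with Ano1 at -1.02 ± 0.29 (adjusted p = 0.0402, limma). Clcn6 at -0.88 ± 0.24 and Clic4 at 0.69 ± 0.22, next in adjusted p on the list for Stat6+/- against Stat6-/- perfusate, did not pass (0.056 and 0.106).

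Of 39 spots of 30 genes of mucous cells and mucus, 7 rose in Stat6+/- against Stat6-/- perfusate and none fell, where 1.13% of all spots were called higher, with the gel-forming mucin Muc5ac at 3.38 ± 0.29, the trefoil peptide Tff1 at 2.84 ± 0.42 and the transcription factor Spdef at 1.05 ± 0.23. The list's median was 0.20, against -0.02 over all spots. With Epi+ 2 rose against 0.147% of all spots, Muc5ac by 2.44 ± 0.29 and Tff1 by 2.64 ± 0.42, and in OVA 1 did against 0.17%, Muc5ac by 2.81 ± 0.32 (over 4 PBS arrays). In lung 9, 5 and 6 of 35 spots rose in the matching comparisons, against 3.42%, 0.0836% and 1.51% of all spots called higher, and none fell. The mean of 11 spots of goblet cell markers ran from 0.73 to 1.28 over Stat6+/- perfusate arrays, 0.51 to 1.07 with Epi+, 0.56 to 1.63 in OVA, -0.55 to 0.32 in Stat6-/- and -0.19 to 0.13 in PBS. These ranges part in the same place as Clca1, so Clca1 per goblet cell and the number of goblet cells cannot be told apart.

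Markers of other cells differed too. In Stat6+/- against Stat6-/- perfusate 3 of 9 spots of ciliated cell markers were higher and 3 of 11 of club cell markers lower, against 3.12% of all spots called. Sftpa1 of 9 alveolar type 2 spots and Ltf of 9 neutrophil spots were lower, while 0 of 7 of macrophage and 0 of 9 of smooth muscle markers were called. In lung, against 5.07% of all spots called, 5 of 7 macrophage and 3 of 9 neutrophil spots were higher in Stat6+/- than in Stat6-/-, and 3 of 11 club cell spots and 3 of 7 endothelial spots (Eng, Kdr and Tek) were lower. Alveolar type 2 (2 of 9) and basal (1 of 7) spots were higher there, and 1 eosinophil and mast cell spot was higher and 1 lower of 8. With Epi+ against Stat6-/- 0 of 7 macrophage spots were called in lung, where only 0.0836% of all spots were called. Their part in the Clca1 and Clca3b differences was not tested.

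Genes whose ratios followed the members most closely were named by Pearson's r over arrays, which share groups, references and platform, so r is a description. Over the 25 perfusate arrays the spots most like Clca1 spot 8429, besides its other spot (r = 0.995), were Slc26a4 (r = 0.903), the calcium pump Atp2a1 (0.894), Muc5ac (0.892, over 24 arrays), the NAD synthetase Nadsyn1 (0.885) and the endoplasmic reticulum protein Fkbp11 (0.88). Clca3b had an r of 0.653 with this spot and of 0.683 with spot 10757, ranking 40 and 32 against 14751 spots of other genes. The spots most like Clca3b were other genes, namely 2810423A18Rik (0.821), the lipid kinase Agk (0.805), Fhl2 (0.8), the sterol transporter Abcg1 (0.777) and the nucleoside carrier Slc28a3 (0.766). Over the 15 lung IL-13 arrays Clca1 spot 8429 was followed by Slc26a4 (0.952), the mucin Muc5b (0.939), the serine protease Corin (0.937), the mucin-folding protein Agr2 (0.919) and Muc5ac (0.91), and Clca3b by 1700037H04Rik (0.874), Tex26 (0.87), Gp2 (0.866, over 12 arrays), Cyct (0.853) and 1700121N20Rik (0.851). In IL-13 lung Clca3b had an r of 0.498 with Clca1 spot 8429 and of 0.564 with spot 10757. It ranked 695 and 311 there, against 13307 spots of other genes. Besides its other spot, Clca1 spot 10757 was led by Atp2a1 (0.904) in perfusate and by Muc5b (0.928) in IL-13 lung, with Slc26a4 second in both (0.903 and 0.918). On the 10 OVA and PBS lung arrays Slc26a4 led for Clca1 spot 8030 (0.967). Next for this spot were Gm8979 (0.965), Ccl8 (0.958), Gbp2b (0.956) and Cxcl10 (0.955). For Clca3b Lyrm7 led there (0.971).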

How the data were processed

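The authors deposited log2 ratios of 2-colour arrays, with channel 1 the reference and channel 2 the sample per the labels. The labels do not state how the authors corrected background or normalized. Array medians of the deposited values lay between -0.96 and 0.30, and each array was centred on its median. Spots were named from the platform annotation, which gives 15418 spots of the larger platform 1 symbol, 7 several and 3727 none, and 14857, 6 and 3377 on the smaller. Each comparison was fitted spot by spot with limma 3.58.1 in R 4.3.3, with at least 3 arrays with a value per group. Perfusate comparisons were fitted over all perfusate groups and lung IL-13 comparisons over the 3 lung IL-13 groups. Tissue differences were fitted over all groups of the larger platform. These fits had the reference preparation or pool as a block. OVA and PBS lung, which share a reference pool, were fitted alone without a block. P-values were adjusted by Benjamini-Hochberg over all spots tested, and a spot was called at an adjusted p under 0.05. The fits were tested on simulated data. Arrays of a tissue had pairwise correlations of -0.09 or higher. The members and lists were chosen with earlier results of these data known. Genes named were the members, other family members, the 3 list spots with the lowest adjusted p in Stat6+/- minus Stat6-/- perfusate, Cftr, Ano1, checks of the labels, and the 5 spots most like each member. Other list genes and Slc26a4 beyond that rule, and Ano1 against PBS, were named after their values were seen. Alternatives were other normalizations, filters, blocks, weights and samples.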

Additional observations from a re-analysis of the deposited data

Results flagged for a closer look

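The Stat6+/- minus Stat6-/- difference of Clca1 was smaller in tracheal perfusate than in whole lung by a test of the difference itself. It was -3.81 at spot 8429 and -3.83 at spot 10757 (perfusate minus lung, log2 scale, limma over 15988 spots, adjusted p = 0.000536 and 0.000575), from 3.63 and 3.90 in perfusate and 7.44 and 7.73 in lung. After quantile normalization it was -1.45 and -1.40 and was not called (adjusted p = 0.136 and 0.214, limma). Slc26a4 differed by -4.83 ± 0.84 and Muc5b by -2.17 ± 0.35 in the same test (adjusted p = 0.000395 and 0.000146), while Muc5ac at -0.50 ± 0.56 was not called. Perfusate RNA was amplified and lung RNA was not, and the references differed, so tissue and preparation cannot be told apart.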

How the results depend on the processing

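Besides single arrays left out, 353 values of member spots were recomputed under other settings, and 329 kept their direction and their side of the threshold, 18 lost the call, 2 gained it and 4 changed sign. On values as deposited, Clca1 spot 8429 gave 0.0207 for Stat6+/- minus Epi+ perfusate and Clca3b -1.23 for OVA minus Stat6+/-. Quantile normalization gave Clca3b 1.89 for Stat6+/- minus Epi+ perfusate (not called), Clca1 tissue differences of -1.45 and -1.40 (not called), and Clca3b 0.0616 for the tissue difference of Epi+ minus Stat6-/-. Averaging the spots of 1 accession gave Clca1 0.0226 for Stat6+/- minus Epi+ perfusate. Without the reference block, Clca3b stood at 1.86 for this comparison and -1.27 for OVA minus Stat6+/-, both not called, and without the Stat6-/- arrays low in Y-linked transcripts at 1.86, not called. Without reference preparation 1.3, which like leaving out OVA lung replicates 2 and 5 was tried after the data were seen, Clca1 spot 10757 gave -0.10 for Stat6+/- minus Epi+. In fits of only the 2 groups, the differences 1.86 and -1.27 of Clca3b, 2.24 of Clca3b and 2.71 and 3.00 of Clca1 (Stat6+/- minus PBS), 2.79 and 2.88 (Epi+ minus PBS) and 3.32 and 3.46 (OVA minus PBS) were no longer called. With array weights Clca3b was called at 3.00 for Stat6+/- minus Stat6-/- lung, and Clca1 spot 10757 at -3.02 for the tissue difference of Epi+ minus Stat6-/-.

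Nothing in the labels says that equal replicate numbers pair the lung samples. Correlations of deviations between arrays of equal number lay between -0.604 and 0.435 for the IL-13 groups, and between -0.18 and 0.012 for OVA and PBS. Such correlations cannot decide whether the samples were handled in pairs. With the number as a replicate block Clca1 gave 7.01 for Epi+ minus Stat6-/- lung at spot 10757 (adjusted p = 0.0634, limma) and 6.12 for OVA minus PBS lung (adjusted p = 0.0536). Perfusate groups share no numbers.

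Leaving out single arrays gave 470 values, of which 454 kept direction and side. Stat6+/- minus Epi+ perfusate ran from 1.61 to 2.04 for Clca3b, from -0.36 to 0.21 for Clca1 spot 8429 and from -0.10 to 0.26 for spot 10757. Spot 8429 was above 0 without Stat6+/- replicate 7 or Epi+ replicate 17 or 18, and spot 10757 below 0 without Stat6+/- replicate 4 or Epi+ replicate 20. Clca3b ran from 1.60 to 3.24 for Stat6+/- minus Stat6-/- lung and from -0.44 to 1.20 for its tissue difference, below 0 without lung Stat6+/- replicate 4, and Clca1 spot 10757 from -3.57 to -2.66 for the tissue difference of Epi+ minus Stat6-/-.

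Counts of all spots called moved more than the members' values. Over settings that kept all arrays of a comparison or dropped a fixed set, and then without single arrays, they ran from 71 to 1015 and 348 to 553 for Stat6+/- minus Stat6-/- perfusate (551 as reported), from 2 to 166 and 43 to 95 for Epi+ minus Stat6-/- (85), from 0 to 274 and 0 to 19 for Stat6+/- minus Epi+ (6), from 0 to 54 and 19 to 44 for OVA minus PBS (43), from 0 to 270 and 12 to 571 for Stat6-/- minus PBS (104), from 4 to 2408 and 746 to 1515 for Stat6+/- minus PBS (1249), from 0 to 1399 and 192 to 916 for Epi+ minus PBS (486) and from 3 to 1323 and 348 to 690 for OVA minus Stat6+/- (637). In lung they ran from 119 to 1135 and 512 to 1138 (849), from 6 to 16 and 9 to 16 (14) and from 94 to 878 and 322 to 871 (592) for the IL-13 comparisons in the order of the text, and from 0 to 810 and 108 to 318 for OVA minus PBS (315). The tissue differences ran from 238 to 840 and 525 to 970 (708) and from 6 to 22 and 10 to 22 (16). The causes were not tested, and spot signals over background were not part of the values.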

Other observations

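Genes beside the cluster on chromosome 3 were also measured. Of Sh3glb1, Selenof and Hs2st1 on 1 side and Znhit6, Odf2l and Col24a1 on the other, Selenof alone was called in any of the 14 comparisons. Hs2st1 was not tested in OVA against PBS lung. Selenof, a selenoprotein of the endoplasmic reticulum, was lower in Stat6+/- than in Stat6-/- perfusate at -0.70 ± 0.17 (adjusted p = 0.0319, limma), where 3.12% of all spots were called. Selenof was also lower in Stat6+/- than in PBS perfusate at -0.63 ± 0.17 (adjusted p = 0.0353, limma), where 7.07% of all spots were called. Both differences ran in the opposite direction to those of Clca1 and Clca3b.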
